A study of Drosophila melanogaster with 3 samples.

Results

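The GAGA, insulator and promoter factor genes are 10 named Drosophila genes: Trl, psq, lola, mod(mdg4), CTCF, su(Hw), BEAF-32, Chro, Dref and M1BP. They were taken by name from 13945 protein-coding genes, and each was searched for binding summits in its body and up to 2 kb upstream, called its gene window here. The binding was that of the product of nautilus (nau), the fly member of the MyoD family of muscle factors, mapped by chromatin immunoprecipitation and sequencing (ChIP-seq). There was 1 group of 3 biological replicates, made from whole embryos of both sexes aged 4 to 24 h from a transgenic line, nau-GFP, in which Nau carries a C-terminal GFP. An antibody to GFP was used for the precipitation, and all 3 replicates carry the same tag. Whole embryos mix many cell types and the samples come from 1 line, so signal cannot be ascribed to a cell type. No embryos without the tag were analysed here, so genes are compared with other genes and not treated with untreated embryos.

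The proteins made by these genes bind short words in DNA or sit with proteins that do, and they set how open a promoter is or where one chromatin domain ends. GAGA factor (Trl) and Pipsqueak (psq) bind runs of GAGAG and belong to the BTB family, whose BTB domain lets proteins pair, as do Lola (lola) and Mod(mdg4). CTCF, Su(Hw) and BEAF-32 bind insulators, while Chromator (Chro) is a chromodomain protein of the open interbands of polytene chromosomes. DREF (Dref) binds the DNA replication-related element, and M1BP binds Motif 1, both common words in promoters of broadly expressed genes.

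The sequences that carry the main results are shown on the plus strand of dm6 (Release 6 of the genome, read from RefSeq), cut so that they hold no exon. Capitals mark the forkhead word GTAAACA and the BEAF-32 core CGATA where one is present, and lower-case letters are the rest. The first lies around the strongest summit of Trl, ranked 9 in the whole genome, at chr3L:14759392-14759592.
Trl 9: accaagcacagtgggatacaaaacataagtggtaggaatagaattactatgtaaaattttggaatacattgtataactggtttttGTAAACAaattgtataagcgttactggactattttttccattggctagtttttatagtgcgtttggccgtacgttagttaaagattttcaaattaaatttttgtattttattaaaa
The next, around the Trl summit ranked 610, at chr3L:14756076-14756276, is shown because it held none of the words searched.
Trl 610: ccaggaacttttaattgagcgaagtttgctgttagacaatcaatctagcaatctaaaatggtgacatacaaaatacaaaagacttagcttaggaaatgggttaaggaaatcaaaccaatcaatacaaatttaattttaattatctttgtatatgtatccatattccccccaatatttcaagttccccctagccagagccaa
The summit of Chro ranked 14 lay beside the short gap between the starts of Chro and Ssl1, at chr3L:22878985-22879088.
Chro and Ssl1: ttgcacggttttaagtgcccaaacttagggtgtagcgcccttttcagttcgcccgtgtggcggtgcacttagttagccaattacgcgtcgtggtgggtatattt
The summit in the window of mod(mdg4), ranked 516, lay closer to tin, at chr3R:21378685-21378885.
mod(mdg4) and tin: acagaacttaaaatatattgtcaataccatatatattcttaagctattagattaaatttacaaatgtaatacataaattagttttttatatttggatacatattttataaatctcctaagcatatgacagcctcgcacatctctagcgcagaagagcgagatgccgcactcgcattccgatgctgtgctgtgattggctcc
The gap between the starts of Dref and RpL13, at chr2L:9967230-9967312, held strong summits in replicates 1 and 3 that replicate 2 lacked.
Dref and RpL13: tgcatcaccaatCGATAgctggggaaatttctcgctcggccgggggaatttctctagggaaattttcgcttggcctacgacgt

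The authors kept regions by their irreproducible discovery rate (IDR), and this IDR list held 3767 regions, each with a signal value, which is the authors' own measure of enrichment. Signal values ran up to 2783, with a median of 244 and a lowest value of 166, and regions were ranked by them with 1 as the strongest. The list was the upper end of a list of 30000 regions made from the pooled replicates. Each replicate had a list of 30000 regions of its own, in which the region ranked 3767 had a signal value of 57.9, 59.2 and 67.5 in replicates 1, 2 and 3. Ranks rather than signal values are therefore compared between lists, and a replicate was taken to list a summit when one of its own lay within 100 bp.

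Nau-GFP summits lay in the windows of 6 of the 10 genes, Trl, Chro, psq, lola, mod(mdg4) and BEAF-32, against 17.9% of all protein-coding genes (2497 of 13945). The windows of CTCF, su(Hw), Dref and M1BP held none. The 6 genes held 16 summits, from 1 in Chro, mod(mdg4) and BEAF-32 to 3 in psq and 5 each in Trl and lola. Within 500 bp of a transcription start site (TSS) of their own, 4 of the 10 genes had a summit, namely Trl, Chro, lola and BEAF-32, against 10.6% of all genes (1477). These 4 have 3 or 4 TSSs each, psq has 5 and the others 1. More TSSs mean more sequence searched, and the share of all genes was not matched for this. Counting every region of the pooled list, 7 of the 10 genes had one, against 40.7% of all genes (5682). These are counts over a short list of genes picked by name, and no test was made over them.

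**Figure D1:**
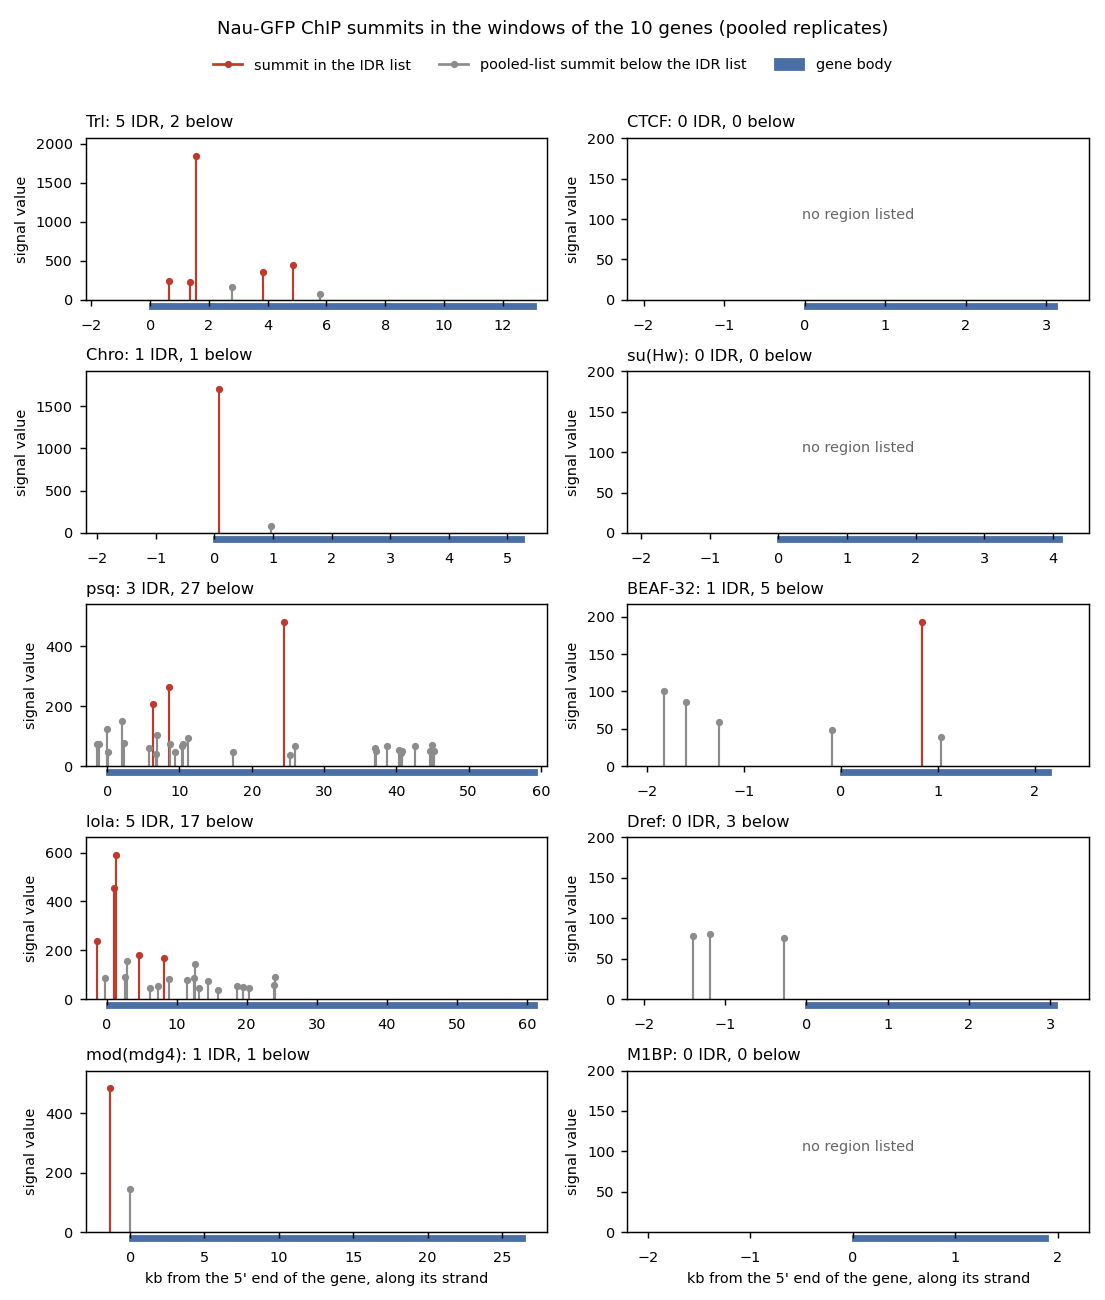
Summits in the windows of the 10 genes, with the distance from the 5′ end of each gene in kb along its strand and the signal value of the pooled list, on its own scale in each panel. Trl, Chro, psq, lola, mod(mdg4) and BEAF-32 hold red IDR summits, Dref holds only 3 grey summits below the IDR list, and CTCF, su(Hw) and M1BP hold no region.

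Gene length differed widely among the 10 and went with the chance of holding a summit genome-wide. Genes with a summit had a median length of 5927 bp, against 2166 bp over all genes, and the share with a summit was 53.3% in the longest of 10 length classes, from 14.6 kb upward. lola at 61.4 kb, psq at 59.4 kb and mod(mdg4) at 26.6 kb belong to that class. Of genes with a length within a factor of 1.5 of theirs, 63.0% held a summit for lola, 61.3% for psq and 50.1% for mod(mdg4). The same share was 39.5% for Trl (13.1 kb), 19.9% for Chro (5.28 kb) and 12.0% for BEAF-32 (2.16 kb). For the genes without a summit it was 17.4% for su(Hw) (4.13 kb), 14.6% for CTCF (3.14 kb), 14.3% for Dref (3.08 kb) and 11.5% for M1BP (1.91 kb). Summits were thus common in genes as long as lola, psq and mod(mdg4), and uncommon in genes as short as the 4 without one.

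**Figure D2:**
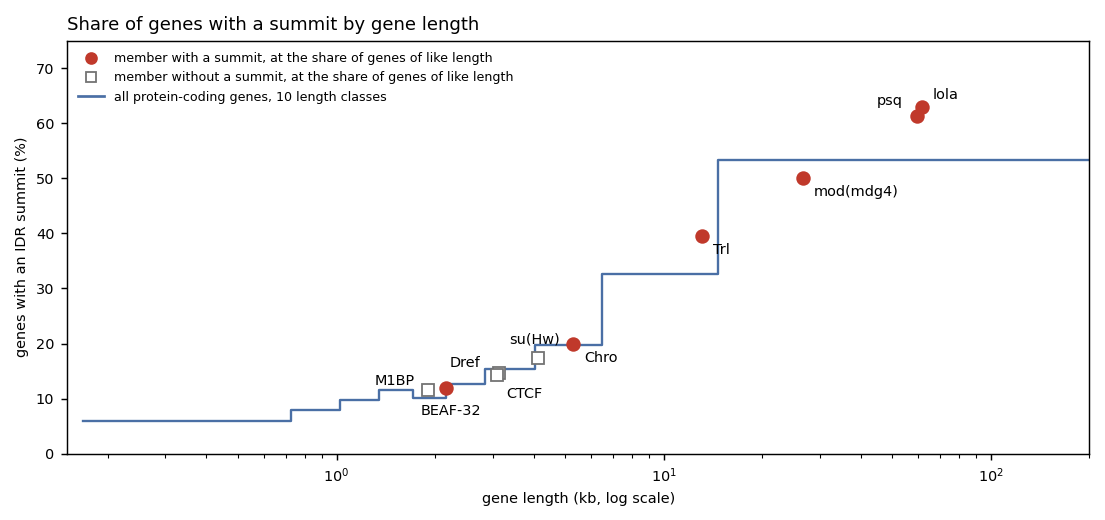
Share of genes with an IDR summit (percent) by gene length (kb, log scale), for each of the 10 genes as the share among genes of like length (red circles with a summit, open squares without) and for all protein-coding genes in 10 length classes (blue line). The 4 genes without a summit sit at 11.5 to 17.4%, and the 6 with one spread over the whole range up to 63.0% for lola.

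Trl encodes GAGA factor, which binds GAGAG words and keeps promoters free of nucleosomes. The gene (FBgn0013263, 3L, 14747929 to 14761049, minus strand) has 4 TSSs, and its 5 summits lay in the first 4.87 kb of the gene. The strongest (14759283 to 14759816) ranked 9 with a signal value of 1851, which is 11.1 times the lowest in the IDR list. It had signal values of 642, 557 and 676 and ranks of 7, 11 and 10 in replicates 1, 2 and 3. Every replicate thus placed it among its strongest regions, with a mean rank of 9.33 ± 2.08 (SD, n = 3). It lay in an intron of the 1 transcript that spans it, 1557 bp from the 5′ end of the gene and 1530 bp upstream of an internal start that Trl shares with CG42507, a gene on the same strand.

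The other Trl summits were weaker by far. The summit ranked 610 (14756092 to 14756327, signal value 448) lay in an intron 1160 bp downstream of a start and ranked 536, 703 and 763 in the replicates. The summit ranked 917 (14757092 to 14757318, signal value 363) lay in the 5′ UTR of all 10 transcripts, 120 bp downstream of a start, and ranked 1588, 614 and 917. The one ranked 1887 (14760411 to 14760533, signal value 244) lay in an intron, 634 bp from the 5′ end, and ranked 2603, 3050 and 1767. All of these were among the 3767 strongest regions of each replicate. The window of CG42507 held 4 IDR summits, those ranked 9, 610, 917 and 2031, all of them also in the window of Trl. The summit ranked 1887 was also in the window of Mgat4a, which starts 979 bp away on the other strand. The signal cannot be divided between these genes, whose windows overlap.

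The summit of Trl ranked 2031 (signal value 235) shares its region with the summit ranked 9. It had no summit of replicate 1 within 100 bp and ranked 5729 and 16479 in replicates 2 and 3, outside the 3767 strongest of each. Just below the IDR list, a further Trl region ranked 3788, with a signal value of 165.691 beside the lowest IDR value of 166.272, at 313 bp from the shared start. It ranked 3515, 19739 and 2292 in the replicates, so replicate 2 placed it far lower than the others. Trl and lola each held 5 summits, and 0.889% of all genes held 5 or more (124 genes, of median length 44.1 kb). Of those 124 genes, 7 were shorter than Trl, and 1.5% of genes of a length like that of Trl held 5 or more, as did 13.8% of genes of a length like that of lola. The genes with the most were bun with 15, RapGAP1, Svil and sbb with 14 each, and CHES-1-like with 13, and all 5 are longer than Trl, at 27.0 kb or more.

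psq encodes Pipsqueak, a BTB protein that binds GAGAG through its Psq domain and is found with GAGA factor. Its strongest summit (FBgn0263102, 2R, 10582090 to 10582549) ranked 520 with a signal value of 483, in an intron 1366 bp upstream of an internal start. It had signal values of 150, 133 and 213 and ranks of 591, 732 and 403 in replicates 1, 2 and 3, a mean of 575 ± 165 (SD, n = 3). The summits ranked 1613 (10566210 to 10566669) and 2599 (10564147 to 10564315) lay in introns nearer the 5′ end. The first of these ranked 1802, 1472 and 2191, within a narrow span, while the one ranked 2599 ranked 2047, 7863 and 1699, so that replicate 2 stood apart. None of the 3 lay within 500 bp of a start of psq.

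Most of the regions in psq were below the IDR list, as in the whole pooled list, where the IDR list took 3767 of 30000. Its window (the gene runs from 10557888 to 10617280 on the plus strand) held 30 regions of the pooled list, of which 27 were below the IDR list, the best of them ranked 4436. They reached 45.1 kb into the gene. Genes of like length had a median of 14 pooled regions. Per kb of window, psq held 0.489 pooled regions, against 0.234 over all gene windows together.

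lola encodes a large family of BTB zinc finger isoforms that guide axons and are made by alternative splicing. Its 2 strongest summits overlap upstream of an internal start (FBgn0283521, 2R, 10481894 to 10543291, minus strand). The summit ranked 348 (10541754 to 10542213, signal value 591) lay 314 bp upstream of that start and ranked 364, 405 and 391 in replicates 1, 2 and 3. With a mean rank of 387 ± 20.8 (SD, n = 3), its replicates lay close together. The summit ranked 593 (10542059 to 10542290, signal value 454) lay 521 bp upstream and ranked 667, 566 and 585.

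The other lola summits were nearer the foot of the IDR list. The summit ranked 1994 (10544480 to 10544939) lay 1419 bp upstream of the gene and ranked 2285, 3411 and 2041. The intronic summit ranked 3234 (10538453 to 10538912) ranked 6012, 5553 and 2918, so replicates 1 and 2 placed it outside their 3767 strongest. The summit ranked 3703 (10534889 to 10535348, signal value 168, just inside the threshold) lay 87 bp upstream of a further internal start. Replicate 1 listed no summit there, and replicates 2 and 3 ranked it 2082 and 3280. The lola window held 22 regions of the pooled list, 17 of them below the IDR list, with the farthest 24.1 kb from the 5′ end, against a median of 15 in genes of like length. The 3′ part of this 61.4 kb gene, where exons of many isoforms lie, thus held no region of the pooled list. Among its 3767 strongest, replicate 1 had a region there, 57.7 kb from the 5′ end and ranked 2940, that the other replicates did not list.

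mod(mdg4) encodes BTB proteins with many isoforms, some joined by trans-splicing, of which 1 acts with Su(Hw) at the gypsy insulator. Its only IDR summit (3R, 21378642 to 21378884) ranked 516 with a signal value of 486 and lay 1384 bp upstream of the gene (FBgn0002781, 21350846 to 21377401, minus strand). It ranked 687, 511 and 562 in the replicates, a mean of 587 ± 90.6 (SD, n = 3), and had signal values of 140, 157 and 181. The nearest TSS, at 192 bp, was that of tinman (tin), the homeobox factor of heart precursors, which starts 1576 bp away on the other strand. The summit falls in the mod(mdg4) window only through the 2 kb taken upstream, and the data do not say which of these genes it serves.

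The start of mod(mdg4) itself held a region ranked 4715 in the pooled list (signal value 145, 22 bp from the start), below the IDR list. It ranked 14323, 2152 and 8952 in the replicates, so only replicate 2 placed it among its 3767 strongest. About 1 kb inside the gene, replicates 1 and 3 listed a region ranked 2315 and 3539 that the pooled list did not hold within 100 bp. The whole window held 2 pooled regions, against a median of 7 in genes of like length.

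BEAF-32 encodes an insulator protein that binds CGATA words near promoters. It is the shortest gene of the 6 with a summit (FBgn0015602, 2R, 14770469 to 14772630, plus strand), and the summit sat exactly on 1 of its 3 TSSs (14771071 to 14771530). This summit ranked 2913 with a signal value of 193, which is 1.16 times the lowest in the IDR list. It had signal values of 55.5, 55.9 and 82.0 and ranks of 4084, 4208 and 2637 in replicates 1, 2 and 3. Only replicate 3 therefore placed it among its 3767 strongest regions, and the mean rank was 3643 ± 873 (SD, n = 3). The window held 5 more pooled regions below the IDR list, the best ranked 8131 and nearest to the start of the neighbouring gene Spred.

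Chro encodes Chromator, which is needed for interband structure and works beside BEAF-32 at many promoters. Its summit (FBgn0044324, 3L, region 22878701 to 22879114) ranked 14 with a signal value of 1708, or 10.3 times the lowest in the IDR list. It had signal values of 624, 468 and 626 and ranks of 8, 18 and 15, a mean of 13.7 ± 5.13 (SD, n = 3), so all 3 replicates had it near the top. It lay in the 5′ UTR, 81 bp downstream of the TSS at the 5′ end of the gene ( 22873702 to 22878984, minus strand). Ssl1, which encodes a subunit of the general factor TFIIH, starts 105 bp away on the other strand, and the region spans both starts. A second pooled region at Chro ranked only 11369, and replicate 3 alone listed it.

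Ordered by the rank of their strongest summit, the genes fell into steps. The replicate ranks of Trl (7 to 11) and Chro (8 to 18) overlapped as ranges. Within each replicate Trl ranked above Chro, at 7 and 8, 11 and 18, and 10 and 15 in replicates 1, 2 and 3. lola came next at 364 to 405, apart from both. mod(mdg4) at 511 to 687 lay wholly below lola, whereas the range of psq, 403 to 732, overlapped both of them. Within each replicate psq ranked below lola, while psq and mod(mdg4) changed places between replicates. BEAF-32, at 2637 to 4208, lay below all the rest.

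Dref encodes DREF, the activator that binds TATCGATA at promoters of replication and growth genes. It is a short gene (FBgn0015664, 2L, 9964147 to 9967229, minus strand), and RpL13, which encodes a ribosomal protein of the large subunit, starts 84 bp away on the other strand. Replicate 1 listed a region at this shared promoter (9967193 to 9967397) with rank 148 and signal value 277, and replicate 3 one (9967177 to 9967420) with rank 222 and signal value 274. Their summits lay 68 and 56 bp upstream of the start of Dref, within the sequence printed for Dref and RpL13, which holds 1 CGATA and no TATCGATA. Both summits were nearer to the start of RpL13 than to that of Dref. Replicate 2 listed no summit within 100 bp of them. Its regions in the window were weak, with ranks of 5569, 9083 and 19242, and the closest summit lay 292 bp upstream of Dref.

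The pooled list did not hold the strong region either. Its 3 regions in the Dref window ranked 11232, 11655 and 12097, with signal values of 80.5, 78.2 and 76.1, all under the lowest IDR value of 166.272. For all 3 the nearest TSS was that of RpL13. The closest of these summits lay 212 bp from that of replicate 1 and 224 bp from that of replicate 3, so Dref counts here as a gene without an IDR summit. Such a gap was uncommon but not peculiar to Dref. Of the 500 strongest regions of replicates 1, 2 and 3, 19 (3.8%), 29 (5.8%) and 36 (7.2%) had no pooled summit within 100 bp. Of these, 10, 17 and 18 had a match among the 500 strongest of another replicate. The cause of the gap was not tested.

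**Figure D3:**
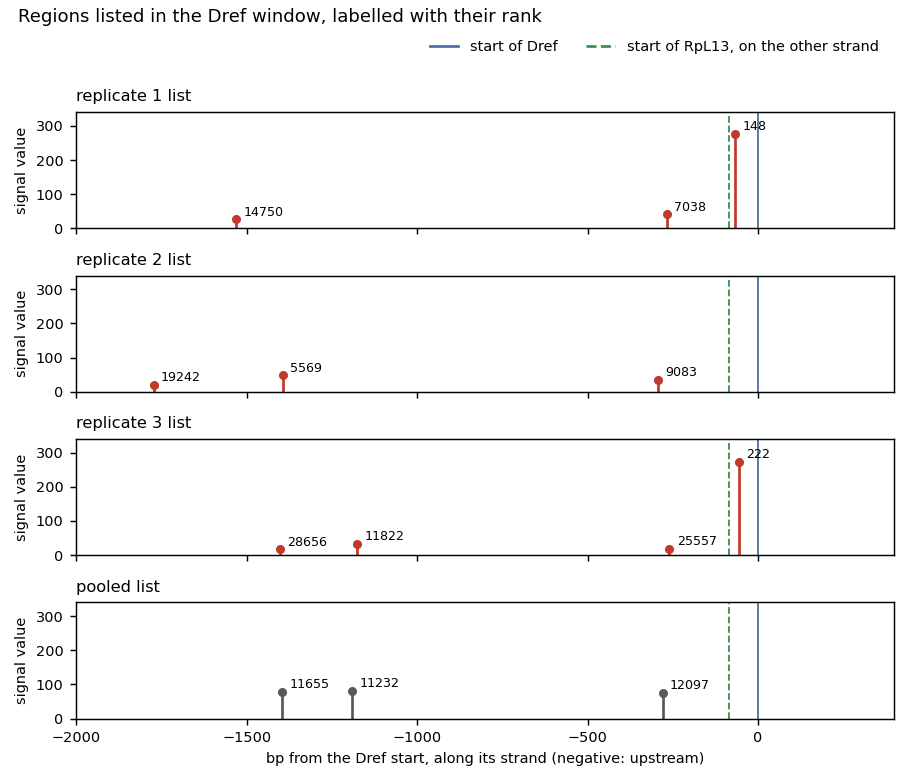
Regions listed in the window of Dref by each replicate and by the pooled replicates, with summits placed in bp relative to the Dref start (negative is upstream), the signal value in that list and the rank as a label. Replicates 1 and 3 show a summit of rank 148 and 222 between the starts of Dref and RpL13, which replicate 2 and the pooled list lack.

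CTCF (FBgn0035769, 3L, 7353578 to 7356713, minus strand) and su(Hw) (FBgn0003567, 3R, 14304455 to 14308589, minus strand) encode zinc finger proteins of separate classes of insulators. M1BP (FBgn0037621, 3R, 8729790 to 8731698, minus strand) encodes the Motif 1 binding protein, which acts at promoters with paused polymerase. No region of the pooled list or of any replicate's 30000 lay in the windows of these 3 genes. The closest IDR summit was 5160 bp from the window of CTCF, 15577 bp from that of su(Hw) and 13915 bp from that of M1BP. Of genes of like length, 35.0% held a pooled region for CTCF, 39.2% for su(Hw) and 31.4% for M1BP, so an empty window was the more common state.

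The replicates listed the same genes with few exceptions. Among their own 3767 strongest regions, replicates 1, 2 and 3 had a summit in 6, 5 and 7 of the 10 genes, a mean of 6 ± 1 (SD, n = 3), against 19.2%, 18.6% and 19.0% of all genes, a mean of 18.9% ± 0.297. Trl, Chro, psq, lola and mod(mdg4) were listed by all 3, Dref by replicates 1 and 3, and BEAF-32 by replicate 3. Taking every listed region, the same 7 genes had one in each replicate, against 46.0%, 45.3% and 45.4% of all genes.

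Of the 16 IDR summits in the windows, 11 (68.8%) had a match among the 3767 strongest of all 3 replicates, against 51.5% of all IDR summits (1940 of 3767). A further 2 were matched in 2 replicates, 2 in 1 and 1 in none. Matches were at the stronger summits, and in the whole list too the share matched fell with rank. All 11 summits ranked up to 2000 were matched, where the whole list gave 97% for ranks 1 to 100, 94.9% for 101 to 1000 and 75.7% for 1001 to 2000. None of the 5 ranked lower was matched, where the whole list gave 22.4% for ranks 2001 to 3000 and 1.04% below that.

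**Figure D4:**
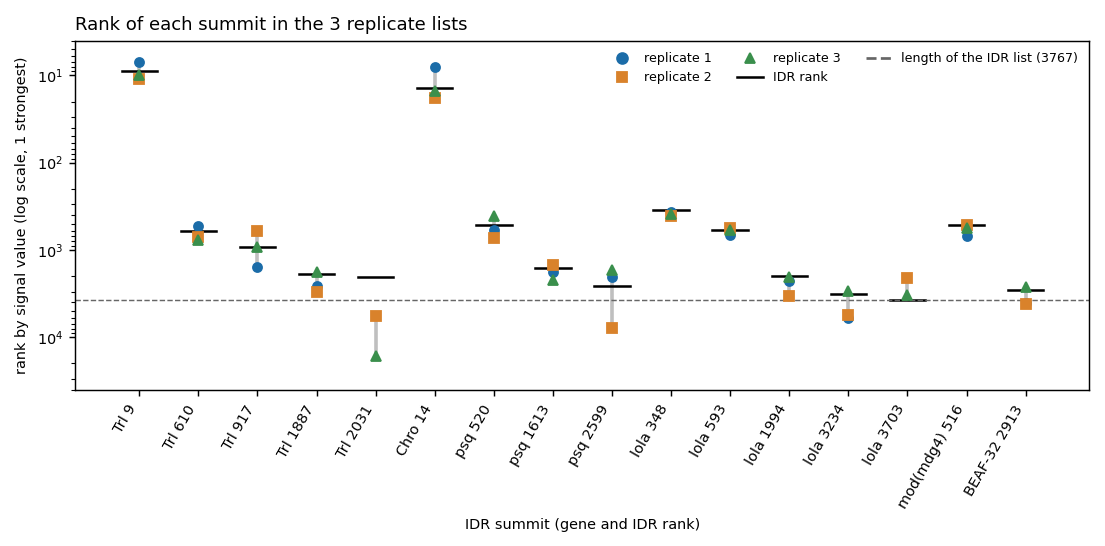
Rank of each of the 16 IDR summits in the lists of replicates 1, 2 and 3 (log scale, 1 strongest at the top), with the IDR rank as a black bar and the length of the IDR list, 3767, as a dashed line. Trl 9 and Chro 14 stand apart at the top in every replicate, and the 5 summits ranked below 2000 each have a replicate under the line or no match.

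By position, 11 of the 16 summits lay in introns, 3 in an exon of at least 1 transcript and 2 upstream of the gene. The 3 in exons were in 5′ UTRs. Within 500 bp of a TSS of the gene lay 5, and for 15 the nearest TSS was the gene's own, shared with CG42507 in 1 case. The exception was the summit at mod(mdg4) and tin. No shares over all IDR summits are given for these positions, so the counts describe these 16 summits only.

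Short words were searched on both strands of the 201 bp around each summit, since MyoD-family factors bind E-boxes and the proteins of the 10 genes bind words of their own. CAGCTG, the E-box preferred by MyoD-type dimers, occurred in 1 of the 16 windows (6.25%), that of lola 3234, against 15.1% of all IDR windows and 8.59% of 6946 flanking windows. Any E-box, CANNTG, of which CAGCTG is 1 form, occurred in 7 (43.8%), against 66.0% of all IDR windows and 65.5% of flanks. The strongest summits of Trl, Chro, psq and lola had no CANNTG in their windows, whereas that of mod(mdg4) had 2 and that of BEAF-32 had 1, centred 1.5 bp from the summit. The forkhead word GTAAACA, searched because forkhead factors also act in mesoderm, occurred in 3 windows (18.8%), those of Trl 9, psq 2599 and BEAF-32, against 8.15% of all IDR windows and 5.05% of flanks. In the window of Trl 9 it lay 12 bp from the summit. Within 50 bp of the summit the word was in 1 of 16 windows (6.25%), against 5.12% of all IDR windows, and at 100 bp it was in 1 of the 9 windows ranked up to 1883. With 16 windows, 1 window more or less is 6.25%.

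The words bound by the proteins of the 10 genes were counted in the same windows. GAGAG occurred in 2 windows (12.5%), against 28.0% of all IDR windows, and both were in lola. With overlapping copies counted, lola 1994 held 1 and lola 3703 held 9, a number that 22 IDR windows (0.584%) reached. None of the 8 windows of Trl and psq, whose products bind this word, held it. At 250 bp either side the count was 10 of 16 (62.5%), against 58.2% of all IDR windows, and at 50 bp it was 2 (12.5%), against 14.6%. The lower share of GAGAG at the 16 summits was thus not kept in the wider window.

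The BEAF-32 core CGATA lay in 3 windows (18.8%), those of Chro, lola 348 and BEAF-32 itself, against 22.9% of all IDR windows. The direction turned with the window, at 9 of 16 (56.2%) against 47.7% within 250 bp and 2 of 16 (12.5%) against 11.8% within 50 bp. The DREF word TATCGATA, which holds CGATA on both strands, occurred in none of the 16, against 1.59% of all IDR windows. Neither did the Motif 1 word GGTCACAC (1.35% of IDR windows), the Su(Hw) word TGCATACTT (0.584%) or the CTCF core GGTGGCGC (0.796%). With shares this low, a count of 0 in 16 says nothing of the word. Of the windows, 5 held none of the words searched, namely Trl 610, Trl 2031, psq 520, psq 1613 and lola 593. The share of all IDR windows without a word is not given, so nothing can be read from this count. The median GC content was 36.3% in the 16 windows, ranging from 28.4 to 56.7%, against 37.8% in all IDR windows.

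**Figure D5:**
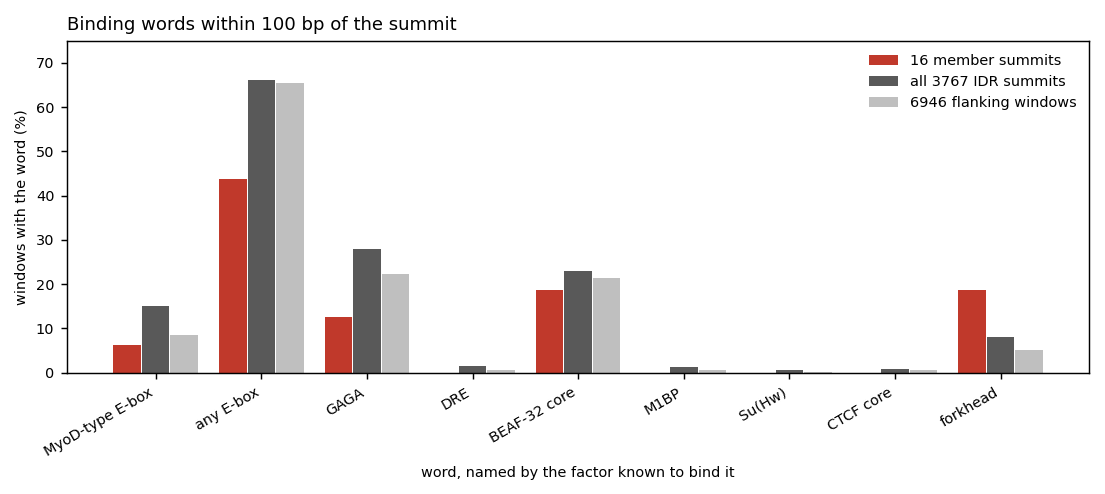
Share of windows (percent) that hold each word within 100 bp of the summit, for the 16 summits of the 10 genes (red), all 3767 IDR summits (dark grey) and 6946 flanking windows (light grey). The red bars are lower than the dark grey ones for both kinds of E-box, GAGA and the BEAF-32 core, higher for the forkhead word at this window width and absent for DRE, M1BP, Su(Hw) and CTCF words.

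The promoters of the 10 genes were searched for the same words, whether or not they held a summit. Each gene gave 1 promoter, from 250 bp before to 50 bp after the start of its canonical transcript. TATCGATA occurred in 3, those of mod(mdg4), CTCF and BEAF-32, against 8.94% of all promoters. CGATA occurred in 6 (46.9% of all promoters), among them, with overlapping copies counted, 3 copies in mod(mdg4) and 1 in Dref. The Motif 1 word was in that of su(Hw) alone (7.54% of all promoters), and GAGAG in those of Trl and lola (30.2%). CAGCTG was in the promoters of psq and CTCF (17.9%), and neither promoter held an IDR summit within 500 bp. Over the whole genome, CAGCTG was in 25.6% of the promoters of genes with such a summit at any of their starts. That start need not be the one searched. A match describes these letters and not a bound site.

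Genes of related function gave unlike counts, and their lists differed in gene length. Of 10 other genes of BTB or zinc finger proteins, set beside lola, 7 held a summit and all 10 a pooled region. Their median length was 51.9 kb, in the longest of 10 length classes, where 53.3% of genes held a summit and 88.0% a pooled region. The 7 were ttk, br, bab1, bab2, fru, chinmo and ken, with 13 summits in all, the best of them ranked 417 in bab1, and ken alone had one at its own promoter. Of 10 genes of interband proteins and promoter cofactors, 3 held a summit (JIL-1, Trf2 and Adf1) and 5 a pooled region, at a median length of 4.16 kb. In the length class of that median, 19.8% of genes held a summit and 42.8% a pooled region.

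Adf1, a factor that binds promoters such as that of Adh, had a summit ranked 109, with replicate ranks of 194, 111 and 104. JIL-1, the interband kinase of histone H3, had one ranked 262, with 290, 310 and 196. The single summit of Trf2, which encodes a TBP-related factor, ranked 2010 and lay 22 bp from the start of lawc. Replicate 1 did not list it, and replicates 2 and 3 ranked it 807 and 1816. Of 10 other insulator protein genes, Cp190, pita, ZIPIC, Ibf1, Ibf2, Elba1, Elba2, Elba3, insv and dwg, none held an IDR summit or a pooled region, at a median length of 1.56 kb. CTCF and su(Hw) shared that with them, while BEAF-32 and mod(mdg4) had listed regions. In the length class that holds 1.56 kb, 11.6% of genes held a summit and 30.4% a pooled region.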

How the data were processed

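Anti-GFP ChIP-seq was done on whole nau-GFP embryos in 3 biological replicates, per the labels. Where the labels disagreed (nau or anti-GFP as antibody, and an age outside embryonic life), the sample description and the source name were used. Fragments of 200 to 800 bp came from sonication, per the labels. The authors deposited narrowPeak lists on dm6, namely 1 per replicate and 1 from the pooled replicates, made as input for IDR, and 1 thresholded by IDR, with a control file per the deposited read-me files. Neither aligner nor peak caller is named, and the IDR cutoff is not given in the sources used here. Read depth is unknown. Lists on the older build dm3 were not analysed here. The deposited signal value ranks regions by enrichment, in units that no source states. The authors' deposited -log10 q value served only to check the order of the regions. The IDR list equalled the 3767 strongest pooled regions, and 28 entries that repeat an interval with a further summit were kept.

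Ensembl release 115 (BDGP6.54) supplied the protein-coding genes of 6 chromosome arms. Summits are 1-based dm6 positions, and sequence came from the RefSeq genome of Release 6. Flanking windows lay 1000 bp to either side of a summit with no IDR summit within 300 bp. Replicates were matched within 100 bp by summit, so SDs measure the spread between 3 samples. No p-value was computed, since there is 1 group and the members and lists were chosen with earlier results of these data known. Named in the text were the 10 genes, the genes with the nearest TSS to a summit or pooled region in their windows, the related genes with a summit and the 5 genes with the most summits. Ssl1, lawc, Mgat4a and the related genes without a summit were named after their values were seen. Alternatives covered the gene window, gene assignment, promoter width, match distance, word window, the upper part of the IDR list and leaving out each replicate. Counting was tested on planted summits and words. Python 3.11.15 with numpy 2.4.6, pandas 2.3.3 and matplotlib 3.10.9 was used.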

Additional observations from a re-analysis of the deposited data

How the results depend on the processing

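Of 85 recomputed values, 72 kept within the limits set for a change, 13 moved and 0 reversed. The number of genes with a summit stayed at 5 or 6 of 10 throughout. It was 5 with 1 kb upstream, with the gene body alone and with summits given to the nearest TSS, each time without mod(mdg4). It was also 5 in the upper part of the IDR list (ranks to 1883) and without each replicate, each time without BEAF-32. For counts without a replicate, the pooled and IDR lists were not remade. Only IDR summits with a match among the 3767 strongest of both other replicates were kept. This left 2287, 2363 and 2232 IDR regions without replicates 1, 2 and 3. Such counts therefore reflect a stricter filter and not only the loss of a replicate. The 16 summits in the windows became 9 in the upper part of the IDR list, 14 with 1 kb upstream and 11 to 12 under this filter. The number of genes with a summit at a promoter of their own was 3 in the upper part and without each replicate, and 4 at 250 and 1000 bp. The median of the genes' mean replicate ranks was 481 over all replicates. It ranged between 437 and 492 when the ranks of 1 replicate were left out, the lowest without replicate 2. At 50 bp it had no value, since psq and mod(mdg4) then had no match in replicate 3. Summits matched in all 3 replicates numbered 9 at 50 bp and 12 at 250 bp.

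The word counts depended on the window most. CAGCTG, in 1 of 16 windows, was in 0 at 50 bp, 3 (18.8%) at 250 bp and 0 in the upper part of the IDR list. Of all IDR windows, 8.73% held it at 50 bp and 29.7% at 250 bp. Counts of the other words at these settings moved in 8 of 24 cases, among them GAGAG (10 at 250 bp), CGATA (9 at 250 bp) and GTAAACA (1 at 50 bp). CANNTG was in 4 of 16 (25%) at 50 bp, against 41.9% of all IDR windows, and 13 (81.2%) at 250 bp, against 93.8%. At each width both E-box shares were below those of all IDR windows, though 1 window is 6.25%. The number of bases searched differs between the window widths, and the upper part holds fewer summits. The cause of these changes was not tested. No paired comparison of conditions was possible because there is 1 group. Read depth is unknown, so a window with no listed region cannot be told from one with too few reads.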
